A study of Mus musculus with 2 samples.

Results

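Oligodendrocyte precursors were taken from single-nucleus RNA sequencing of mouse amygdala, made as 1 library from Sema6d-/- mice (KO) and 1 from wild-type mice (WT). A nucleus counted as a precursor where it held at least 1 UMI, a counted molecule, of at least 3 of the 6 genes Pdgfra, Cspg4, Vcan, C1ql1, Lhfpl3 and Olig1, and none of Gad1, Gad2, Slc17a7 or Mog. The nuclei were thus chosen by their measured UMIs of these genes, and 107 KO nuclei and 90 WT nuclei passed, 197 of the 17583 kept in all. All mice were 6 to 8 weeks old and of the strain given as C57BL6/J, and the libraries came from version 2 of the 10x 5′ kit, which reads transcripts near their 5′ ends. The sources used here do not give how many animals a library holds, which sex they were or where Sema6d was disrupted. Each genotype being a single library, no difference could be tested, and genotype, animal and library cannot be told apart.

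Oligodendrocyte precursors, also called NG2 glia, are spread through grey and white matter, divide throughout life and give rise to the oligodendrocytes that wrap axons in myelin. The PDGF receptor encoded by Pdgfra carries the signal that keeps them dividing, Cspg4 encodes the NG2 proteoglycan on their surface, and Olig1 and Olig2 are transcription factors of the lineage. A precursor that commits to differentiation loses Pdgfra and passes through a stage marked by Gpr17, Bmp4, Enpp6 and Bcas1 before it makes myelin. Precursors also carry receptors and ion channels for neurotransmitters and receive synapses from neurons.

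The promoters of the genes that chose the nuclei are printed because they are the regulatory sequences of the genes by which precursors are recognised, and the RefSeq table used here gave one for 4 of the 6. Each line runs 5′ to 3′ on the gene's own strand over 250 bases before and 50 after the annotated start, in build GRCm38.p6. The windows were chr5:75152001-75152300 (plus strand) for Pdgfra, chr9:56864854-56865153 (plus strand) for Cspg4, chr13:89742463-89742762 (minus strand) for Vcan and chr5:22745804-22746103 (plus strand) for Lhfpl3. Capitals mark CAGCTG, an E-box read by basic helix-loop-helix factors such as Olig2, which is its own reverse complement, and ACAAAG or ACAATG on either strand, core motifs of SOX factors.
Pdgfra: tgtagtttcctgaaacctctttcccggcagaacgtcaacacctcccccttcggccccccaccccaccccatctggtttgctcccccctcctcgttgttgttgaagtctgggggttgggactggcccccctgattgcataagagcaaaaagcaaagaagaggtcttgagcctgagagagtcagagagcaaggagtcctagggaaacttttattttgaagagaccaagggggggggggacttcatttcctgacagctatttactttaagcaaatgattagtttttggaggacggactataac
Cspg4: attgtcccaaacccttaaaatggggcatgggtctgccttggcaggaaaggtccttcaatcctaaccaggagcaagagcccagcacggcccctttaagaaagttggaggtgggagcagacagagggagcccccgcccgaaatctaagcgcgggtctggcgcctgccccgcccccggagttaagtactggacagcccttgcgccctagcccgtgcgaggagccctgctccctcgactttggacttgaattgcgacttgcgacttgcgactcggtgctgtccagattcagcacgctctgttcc
Vcan: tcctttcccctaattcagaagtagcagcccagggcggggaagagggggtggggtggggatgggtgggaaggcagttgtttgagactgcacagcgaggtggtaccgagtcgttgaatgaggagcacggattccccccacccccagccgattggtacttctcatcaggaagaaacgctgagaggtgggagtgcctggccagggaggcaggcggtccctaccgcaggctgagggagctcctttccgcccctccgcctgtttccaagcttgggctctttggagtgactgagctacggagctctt
Lhfpl3: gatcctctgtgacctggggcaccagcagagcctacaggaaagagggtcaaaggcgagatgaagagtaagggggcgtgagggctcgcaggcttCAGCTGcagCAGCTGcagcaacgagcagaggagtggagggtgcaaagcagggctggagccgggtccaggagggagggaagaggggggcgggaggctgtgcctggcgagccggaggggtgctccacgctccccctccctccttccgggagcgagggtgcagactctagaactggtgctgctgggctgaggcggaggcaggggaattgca
Only the Lhfpl3 window held a match among these 4, with CAGCTG starting at -158 and -149 from the annotated start, and none of the 4 held either SOX core. Among 32851 RefSeq promoter windows of the same length, 16.3% held CAGCTG and 28.6% held a SOX core. These matches describe letters in the windows and say nothing of which factor binds there.

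The KO library held 8666 barcodes with 60402979 UMIs and the WT library 11060 barcodes with 85124128 UMIs, and 128 barcodes occurred in both. Nuclei with 500 to 4500 detected genes and at most 5% mitochondrial UMIs numbered 7514 in KO, with a median of 5994.5 UMIs, and 10069 in WT, with a median of 7006 UMIs. The precursors held a median of 3290 UMIs in KO and 3487.5 in WT, and their UMIs summed to 366163 in KO and 343361 in WT. Levels are given as UMIs of a gene per 1000000 UMIs of all precursors in a library (CPM), and ratios as log2 of KO over WT. Ranges in brackets are exact 95% intervals for counting error and take no account of animals or preparations. Scrublet called 1 precursor in each library a doublet, and both were kept.

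Several nuclei that met the rule stood apart from the rest. In 3 KO nuclei and 4 WT nuclei, UMIs of 25 neuron markers outnumbered those of 30 precursor surface and matrix genes. A further 3 WT nuclei, and none in KO, held at least 3 UMIs of Mobp, a myelin protein gene. These sets were chosen after their values had been seen, and results that rest on them are given with and without them. Over all precursors, neuron markers made up a median of 62.8 per 10000 UMIs in KO and 65.9 in WT, against 373 in KO and 360 in WT for the surface and matrix genes. The neuron markers summed to 7401 CPM in KO precursors and 8265 CPM in WT precursors. Microglia, which should not transcribe them, held 8835 CPM in KO and 9148 CPM in WT. Microglial markers summed to 191 CPM in KO precursors and 183 CPM in WT precursors, against 11898 CPM in KO microglia and 9022 CPM in WT microglia. Astrocyte markers summed to 5025 CPM in KO precursors and 4456 CPM in WT precursors, against 29053 CPM in KO astrocytes and 28007 CPM in WT astrocytes. Of 18 vascular and fibroblast markers, 13 were at 0 in KO precursors and 11 in WT precursors.

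The genes of the rule describe the nuclei it chose and support nothing further. Lhfpl3 held 4790 CPM in KO and 5190 CPM in WT, and Vcan, which encodes the matrix proteoglycan versican, 1237 CPM in KO and 1145 CPM in WT. Pdgfra (chr5:75152292-75198215 in the GENCODE annotation of mm10) held 329 UMIs or 899 CPM in KO, and 184 UMIs or 536 CPM in WT, a log2 ratio of 0.75 (0.48 to 1.01). Cspg4 (chr9:56865033-56899870) held 333 CPM in KO and 192 CPM in WT, a log2 ratio of 0.79. Olig1 stood at 243 CPM in KO and 166 CPM in WT, and C1ql1, a secreted C1q-like protein gene, at 188 CPM in KO and 131 CPM in WT. C1ql1 rested on 69 UMIs in KO and 45 in WT, a log2 ratio of 0.52 (-0.04 to 1.10), and the ratios of Vcan and Lhfpl3 lay near 0. A Pdgfra UMI was found in 85.0% of KO precursors and 74.4% of WT precursors. With nuclei thinned to 1000 UMIs, a depth that 1 KO precursor and no WT precursor missed, the share was 60.4% in KO and 38.9% in WT, and it was 0 in microglia of both libraries.

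Just inside the threshold, at exactly 3 detected rule genes, lay 26 KO nuclei and 24 WT nuclei. Just outside it, at 2, lay 84 KO nuclei and 124 WT nuclei. Tnr, which encodes the matrix protein tenascin-R, held 5362 CPM inside and 1032 CPM outside in KO, and 4600 CPM inside and 861 CPM outside in WT. Syt1, a synaptic vesicle gene of neurons, held 743 CPM inside and 2186 CPM outside in KO, and 1071 CPM inside and 2626 CPM outside in WT. The nuclei just outside carried more neuronal RNA and less precursor RNA in both libraries. Another 187 KO nuclei and 182 WT nuclei had 3 or more rule genes but were left out for a UMI of Gad1, Gad2, Slc17a7 or Mog.

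Beyond the rule genes, the nuclei carried genes known from precursors. Of 439 genes with at least 100 precursor UMIs in each library, 59 were at least 4-fold higher in precursors than in all other nuclei in both libraries, and 47 of these were also above oligodendrocytes, astrocytes and microglia. The profile is a description, since nuclei chosen by precursor genes had to differ from the rest. Ptprz1, a receptor phosphatase that binds the growth factor pleiotrophin, held 3381 CPM in KO precursors and 2263 CPM in WT precursors, against 265 CPM in other KO nuclei and 195 CPM in other WT nuclei. Sox6, a transcription factor of the precursor stage, held 2209 CPM in KO and 2024 CPM in WT. Sema3d, a secreted semaphorin, held 565 CPM in KO and 548 CPM in WT. Xylt1, which starts the sugar chains of proteoglycans, held 2149 CPM in KO and 2449 CPM in WT. Megf11, a receptor with EGF-like repeats, held 565 CPM in KO and 475 CPM in WT. Itpr2, a calcium release channel of the endoplasmic reticulum, held 694 CPM in KO and 533 CPM in WT. Most of these levels lay close together in the libraries, while Ptprz1 stood higher in KO, as did Bcas1, a gene of early myelinating cells, with 1204 CPM in KO and 760 CPM in WT. The other genes among the 20 leading ones were Abtb2, Emid1, Arhgap31, Ppfibp1, Kank1, Myt1, Tns3, Arhgap24, Maml2, Epn2, Cpq, Sulf2 and Svil, with levels between 294 and 1581 CPM in both libraries.

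**Figure D1:**
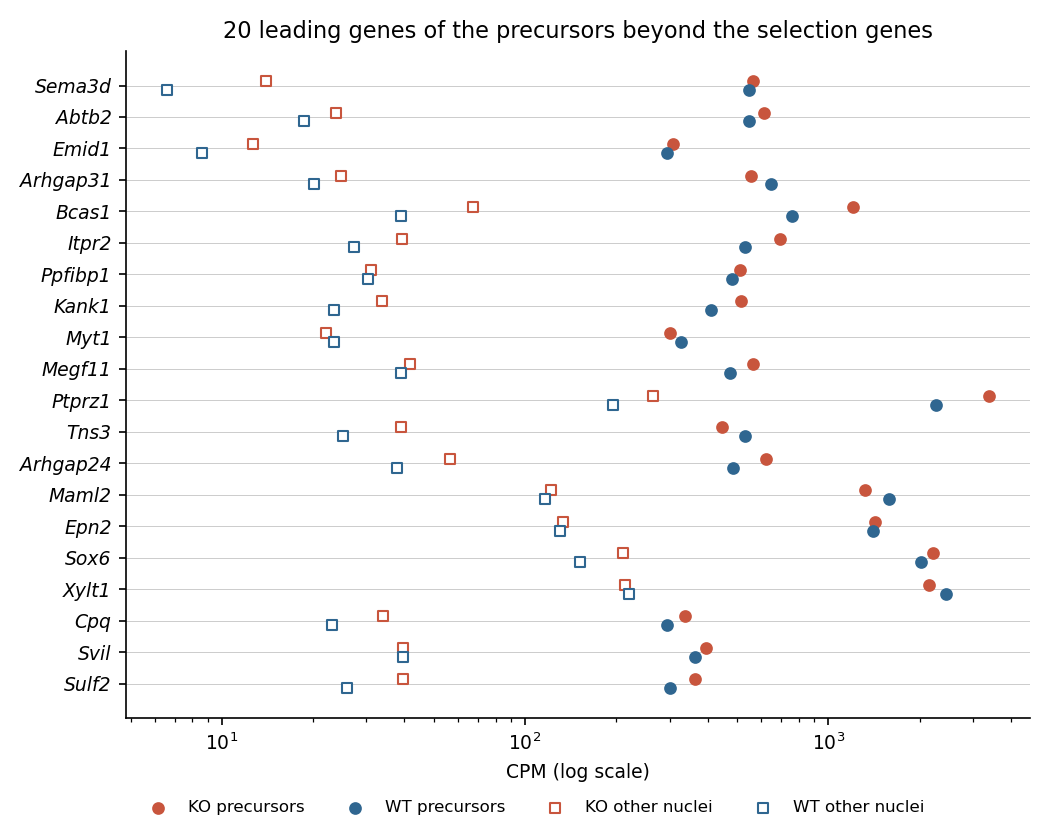
The 20 leading precursor genes beyond the rule genes, as CPM on a log axis, in KO and WT precursors and in all other nuclei of each library. Precursors lay at least 4-fold above the other nuclei for every gene shown, with Ptprz1 at 3381 CPM in KO and 2263 CPM in WT.

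Precursors made up a larger share of the KO library. They were 107 of 7514 kept nuclei, or 1.42% (1.17 to 1.72), in KO and 90 of 10069, or 0.894% (0.719 to 1.10), in WT, a ratio of 1.59 (1.19 to 2.13). Other glia also differed between the libraries: oligodendrocytes were 10.2% of KO nuclei and 3.79% of WT nuclei, a ratio of 2.68 (2.37 to 3.04). Microglia were 1.85% of KO nuclei and 0.725% of WT nuclei, and astrocytes 5.14% of KO nuclei and 5.28% of WT nuclei. The share of precursors thus stood between that of astrocytes, at a ratio of 0.972, and that of oligodendrocytes. Whether dissection or nucleus recovery differed between the libraries was not tested. A UMI of Mki67, Top2a or Cdk1, genes of proliferating cells, was found in 3 of 107 KO precursors (2.80%) and 2 of 90 WT precursors (2.22%), and in none of 139 KO or 73 WT microglia, where a count of 0 allows a share of up to 2.16% in KO and 4.11% in WT.

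**Figure D2:**
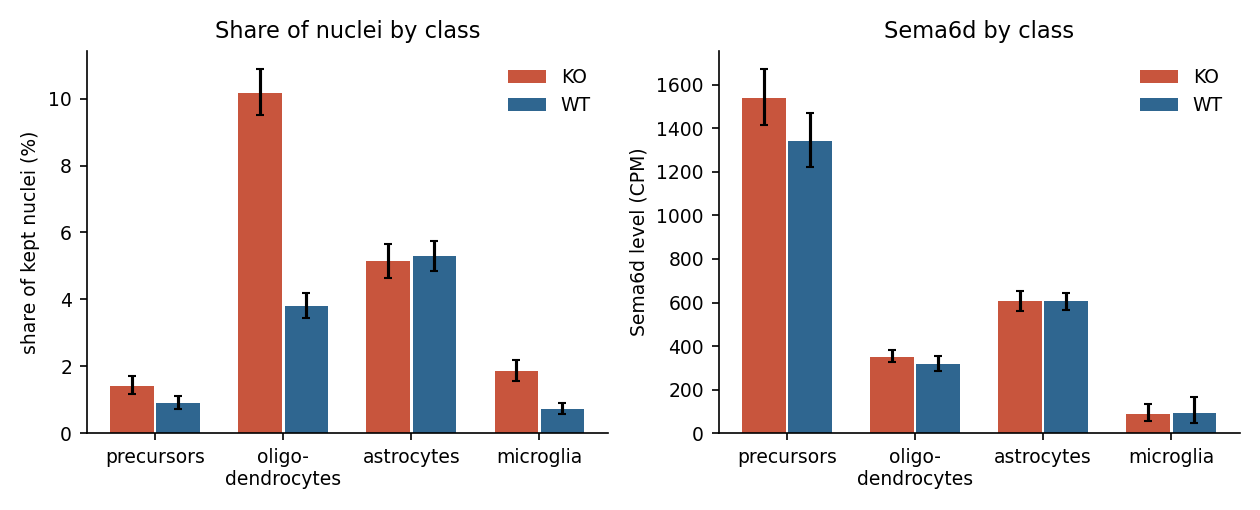
Left, the share of kept nuclei (%) in each glial class in KO and WT; right, the Sema6d level (CPM) in the same classes; error bars are exact 95% counting intervals. Precursors were 1.42% of KO and 0.894% of WT nuclei and held 1540 CPM of Sema6d in KO and 1343 CPM in WT.

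Sema6d, the gene named by the genotype and a membrane-bound guidance molecule that binds class A plexins, was counted in the KO precursors at the level of WT or slightly above. It held 564 UMIs or 1540 CPM (1416 to 1673) in KO and 461 UMIs or 1343 CPM (1223 to 1471) in WT, a log2 ratio of 0.20 (0.02 to 0.38). In nuclei thinned to 1000 UMIs before selection the ratio was -0.11, so its direction rested on the setting. A Sema6d UMI was present in 95.3% of KO precursors and 93.3% of WT precursors. After thinning, 75.5% of KO precursors and 67.8% of WT precursors had one, against 6.67% of KO microglia and 8.82% of WT microglia. Its level was 605 CPM in astrocytes of each library, and 352 CPM in KO and 319 CPM in WT oligodendrocytes, so precursors stood highest of the glial classes. The gene spans chr2:124089969-124667770. Since the deleted part is not given, these 5′ counts do not show whether the transcripts were intact and do not check the label.

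Of 1265 genes with at least 100 UMIs over both libraries, the minimum set for reading a ratio, 60 were at least 1.5-fold higher in KO (4.74%) and 61 at least 1.5-fold lower (4.82%). The median log2 ratio was -0.02, and the 5th and 95th percentiles were -0.57 and 0.58. Without the neuron-rich and Mobp nuclei, 55 of 1101 genes were higher and 34 lower. Of 15573 gene identifiers with any UMI in precursors, 14308 lay under the minimum, so only the more abundant genes could be read.

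Plxna1 and Plxna4, plexin receptors of Sema6d, had few UMIs in precursors. Plxna4 held 31 UMIs or 84.7 CPM in KO and 53 UMIs or 154 CPM in WT, and Plxna1 7 UMIs in KO and 5 in WT. Of 31 semaphorins, plexins and neuropilins, 5 reached the minimum of 100 UMIs, and none was past 1.5-fold in either direction. Sema5a, a transmembrane semaphorin with thrombospondin repeats, held 535 CPM in KO and 422 CPM in WT. Sema3e, a secreted ligand of Plxnd1, held 158 CPM in KO and 215 CPM in WT, a log2 ratio of -0.44. The 5 ratios ran from this value to 0.34. Of 26 other guidance genes, 6 reached the minimum. Only Robo2, a Slit receptor, was past 1.5-fold, and it was lower in KO, against 4.82% of all genes. Robo2 held 139 CPM in KO and 210 CPM in WT. Its log2 ratio was -0.59 over all precursors and 0.58 without the neuron-rich and Mobp nuclei.

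Among genes with a proper symbol, the 12 highest ratios were led by Cd81, Lrp1 and Gpr37l1. Cd81 (chr7:143052739-143067934), a membrane tetraspanin, held 106 UMIs or 289 CPM in KO and 37 UMIs or 108 CPM in WT, a log2 ratio of 1.43 (0.87 to 2.01). It was found in 65 of the KO nuclei and 30 of the WT nuclei. Cd81 was higher in KO in the other glia as well, with log2 ratios of 0.81 in oligodendrocytes, 0.61 in astrocytes and 0.95 in microglia. After thinning, a Cd81 UMI was found in 26.4% of KO and 6.67% of WT precursors, beside 37.8% of KO and 22.1% of WT microglia, which express it too. Lrp1, an endocytic receptor of lipoproteins, held 121 UMIs or 330 CPM in KO and 51 UMIs or 149 CPM in WT, a log2 ratio of 1.15 (0.67 to 1.66), and its ratios in the other glia ran from 0.01 to 0.37. Abca1, which exports cholesterol, held 238 CPM in KO and 122 CPM in WT, a log2 ratio of 0.96. After thinning, Abca1 was found in 20.8% of KO and 10.0% of WT precursors, under the 33.3% of KO and 36.8% of WT microglia. Mertk, a receptor for phagocytosis of dying cells and synapses, held 246 UMIs or 672 CPM in KO and 115 UMIs or 335 CPM in WT, 2.01-fold higher in KO, with a log2 interval of 0.68 to 1.34. Mertk lay at -0.17 in oligodendrocytes, 0.05 in astrocytes and -0.39 in microglia, and the difference between classes was not tested.

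The share of nuclei with a UMI differed in the same direction for these genes. After thinning, a Mertk UMI was found in 41.5% of KO precursors and 23.3% of WT precursors, against 3.2% of KO and 4.0% of WT oligodendrocytes, a class that should hold little of it. Lrp1 was found in 30.2% of KO and 11.1% of WT precursors, against 3.3% of KO and 3.2% of WT oligodendrocytes. Gpr37l1, a receptor related to endothelin receptors, held 202 CPM in KO and 93.2 CPM in WT and was found in 18.9% of KO and 5.6% of WT precursors, against 4.4% of KO and 2.9% of WT microglia. Its log2 ratio of 1.12 in precursors stood beside 0.87 in oligodendrocytes, 1.40 in astrocytes, 0.72 in microglia and 1.28 in all other nuclei. The thinned shares of Mertk, Lrp1 and Gpr37l1 in precursors stood above the class set beside them in both libraries, but not above every class. Lrp1 was found in 22.2% of KO and 23.5% of WT microglia, the latter above the WT precursor share. Mertk was found in 71.9% of KO and 83.8% of WT microglia, and Gpr37l1 in 36.9% of KO and 15.5% of WT astrocytes. Clu, the apolipoprotein gene clusterin, held 221 CPM in KO and 105 CPM in WT, but its thinned shares of 24.5% in KO and 10.0% in WT were close to or below the 23.7% of KO and 20.6% of WT microglia. These shares do not tell Clu expression in precursors from background, since microglia also held fewer UMIs, with medians of 1549 in KO and 1544 in WT. Clu was also higher in KO astrocytes, at a log2 ratio of 1.07.

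The remaining genes at the high end were Gng12, Tcf25, Mark3, Mdm4, Itm2b and Tspan3. Gng12, a G-protein gamma subunit, held 265 CPM in KO and 140 CPM in WT. Tcf25 held 229 CPM in KO and 114 CPM in WT, Mark3, a kinase of microtubule-binding proteins, 188 CPM in KO and 99.0 CPM in WT, and Mdm4, an inhibitor of p53, 238 CPM in KO and 134 CPM in WT. Itm2b, a membrane protein gene expressed broadly, held 341 CPM in KO and 186 CPM in WT, with log2 ratios of 0.76, 0.62 and 0.25 in oligodendrocytes, astrocytes and microglia. Tspan3, another tetraspanin, held 243 CPM in KO and 137 CPM in WT. The thinned shares of Tcf25, 19.8% in KO and 12.2% in WT, and of Mark3, 16.0% in KO and 11.1% in WT, lay under those of microglia, at 27.4% in KO and 22.1% in WT for Tcf25 and 23.0% in KO and 20.6% in WT for Mark3. Itm2b was found in 30.2% of KO and 11.1% of WT precursors, against 52.6% of KO and 51.5% of WT microglia. Mdm4 was found in 24.5% of KO and 7.8% of WT precursors, against 20.7% of KO and 20.6% of WT microglia. Gng12 and Tspan3 were found in a larger share of precursors than of microglia in both libraries. Microglia are not known to lack Tcf25, Mark3, Itm2b or Mdm4, so their shares do not tell expression from background. Leaving out the neuron-rich and Mobp nuclei kept each of the 12 high ratios inside its interval, at 1.45 for Cd81, 1.09 for Lrp1 and 1.25 for Mark3, which was 0.93 with them.

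**Figure D3:**
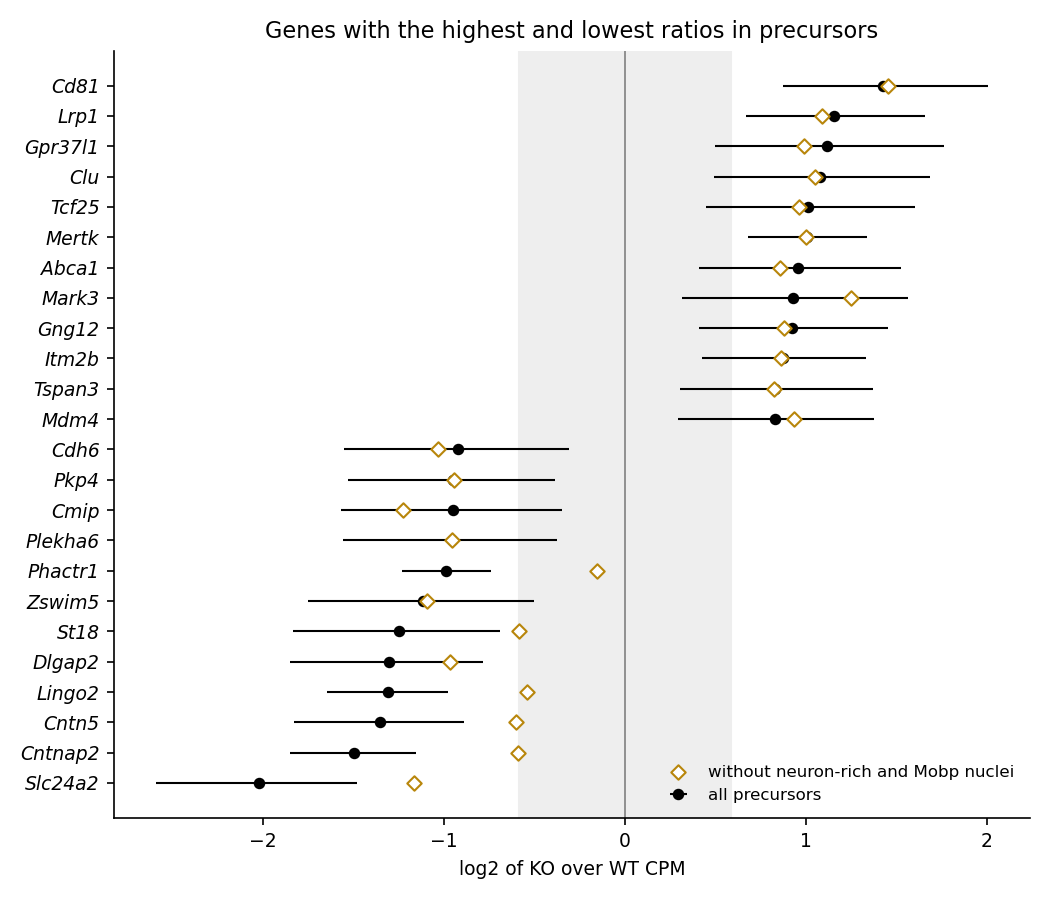
Log2 ratios of KO over WT CPM for the 12 highest and 12 lowest genes in precursors, with exact 95% counting intervals (filled points), and the same without neuron-rich and Mobp nuclei (open diamonds); the band marks ratios within 1.5-fold. The 12 high ratios stayed inside their intervals, with Cd81 at 1.43 and 1.45, while part of the low end moved towards 0, with Phactr1 at -0.99 and -0.15.

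The low end of the ranking rested in part on few nuclei. Slc24a2 (chr4:86983124-87230477), a sodium, calcium and potassium exchanger of neurons and oligodendrocytes, held 36 UMIs or 98.3 CPM in KO and 137 UMIs or 399 CPM in WT, a log2 ratio of -2.02 (-2.59 to -1.48) that was -1.17 without the neuron-rich and Mobp nuclei. Cntnap2 and Cntn5, adhesion genes of neurons, had log2 ratios of -1.50 and -1.35 that came to -0.59 and -0.60 without them. Lingo2, a leucine-rich repeat membrane protein gene, lay at -1.31 over all precursors and at -0.54 without them. Phactr1, a regulator of actin and protein phosphatase 1, held 579 CPM in KO and 1147 CPM in WT, a ratio of -0.99 that was -0.15 without them. So these log2 ratios moved far towards 0 when those nuclei were left out. Dlgap2, a postsynaptic scaffold gene, was at -1.31 with them and -0.97 without. The thinned shares of nuclei with a UMI were also at or under those of microglia for some of these genes. Cntnap2 was found in 17.9% of KO and 26.7% of WT precursors, against 23.0% of KO and 23.5% of WT microglia, and Lingo2 in 9.4% of KO and 18.9% of WT precursors, against 17.0% of KO and 26.5% of WT microglia. Slc24a2 was found in 8.5% of KO and 12.2% of WT precursors, against 13.3% of KO and 27.9% of WT microglia, and Cntn5 in 7.5% of KO and 10.0% of WT precursors, against 11.9% of KO and 23.5% of WT microglia. For Lingo2, Slc24a2 and Cntn5 the shares lay under those of microglia in both libraries, so expression in precursors could not be told from background.

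Other genes of the low end held their ratios without those nuclei. Zswim5, a zinc finger gene, held 34 UMIs or 92.9 CPM in KO and 69 UMIs or 201 CPM in WT, a log2 ratio of -1.11 (-1.75 to -0.50) that was -1.10 without them. Plekha6 held 107 CPM in KO and 207 CPM in WT, and its ratio was -0.96 in both settings. Cdh6, a cadherin, held 98.3 CPM in KO and 186 CPM in WT, a ratio of -0.92 that was -1.03 without them. These genes were found in few microglia. After thinning, Zswim5 was in 10.4% of KO and 23.3% of WT precursors against 2.2% of KO and 1.5% of WT microglia. Cdh6 was in 9.4% of KO and 16.7% of WT precursors against 0.7% of KO and 1.5% of WT microglia. Pkp4, a plakophilin of cell junctions, held 115 CPM in KO and 221 CPM in WT, a log2 ratio of -0.95 that was -0.94 without those nuclei and 0.057 in thinned nuclei. Cmip held 101 CPM in KO and 195 CPM in WT, but its thinned shares of 11.3% in KO and 13.3% in WT were under those of microglia, at 17.8% in KO and 20.6% in WT.

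Genes encoded in mitochondria were lower in KO precursors, as mitochondrial shares were in every class of the KO library. Of the 11 with at least 100 UMIs, 8 were at least 1.5-fold lower, against 4.82% of all genes. These 8 are among the 61 lower genes. The median log2 ratio of the 11 was -0.74, and mt-Co1, a subunit of cytochrome oxidase, held 1158 CPM in KO and 1972 CPM in WT. The median mitochondrial share of a precursor nucleus was 0.5% in KO and 0.841% in WT. It was 0.777% in KO and 1.5% in WT oligodendrocytes, 0.588% in KO and 1.01% in WT astrocytes, 0.872% in KO and 1.58% in WT microglia, and 0.448% in KO and 0.773% in WT among all other nuclei. In nuclei such RNA comes from outside the nucleus, and its part in the other differences was not tested.

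The surface and matrix genes by which precursors meet their surroundings stood at a median log2 ratio of 0.07 over the 25 of 30 members with at least 100 UMIs. Of these, 3 were past 1.5-fold higher in KO, against 4.74% of all genes, and none lower. Bcan, the proteoglycan brevican, held 620 CPM in KO and 352 CPM in WT, a log2 ratio of 0.81. Cspg5, the proteoglycan neuroglycan C, held 552 CPM in KO and 364 CPM in WT, a log2 ratio of 0.60, and Gpr37l1 was the third. Outside precursors they were also higher in KO in most classes, with ratios in astrocytes and in all other nuclei of 0.46 and 0.60 for Bcan and of 0.45 and 0.54 for Cspg5, which lay at -0.74 in microglia. Ptprz1, with 1238 UMIs in KO and 777 in WT, lay just under the threshold at 0.58 (0.45 to 0.71). The large adhesion genes Tnr, with 4736 CPM in KO and 4669 CPM in WT, and Pcdh15, with 4099 CPM in KO and 3582 CPM in WT, were near each other in the libraries. Without the neuron-rich and Mobp nuclei, 2 members were past 1.5-fold higher.

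The transcription factors of the lineage did not lean to either library. Of 26, 14 reached the minimum, at a median log2 ratio of -0.01. Of these, 1 was past 1.5-fold higher in KO and 1 lower, against 4.74% and 4.82% of all genes. Olig2 held 309 CPM in KO and 189 CPM in WT, a log2 ratio of 0.71. Sox10, which drives myelin genes, held 238 CPM in KO and 210 CPM in WT, and Sox5, a partner of Sox6, 1174 CPM in KO and 1258 CPM in WT. St18, a zinc finger gene of differentiating oligodendrocytes, held 107 CPM in KO and 253 CPM in WT, a ratio of -1.25 that was -0.59 without the neuron-rich and Mobp nuclei. Among growth factor and Notch genes, 8 of 43 reached the minimum, at a median of -0.32. Nrg1, a ligand of ErbB receptors, was the only member past 1.5-fold lower, against 4.82% of all genes. It held 576 CPM in KO and 1083 CPM in WT, a ratio of -0.91 that was -0.37 without those nuclei. Its receptor gene Erbb4 held 3061 CPM in KO and 2886 CPM in WT.

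Several genes of committed precursors were higher in KO. Of 25 genes 24 were in the table and 16 reached the minimum, at a median log2 ratio of 0.32, with 4 past 1.5-fold higher in KO, against 4.74% of all genes, and none lower. Neu4, a sialidase gene, held 374 CPM in KO and 230.1 CPM in WT, a ratio of 0.70. Bcas1 held 441 UMIs or 1204 CPM in KO and 261 UMIs or 760 CPM in WT, a ratio of 0.66 (0.44 to 0.89). Gpr17, a receptor of cells leaving the precursor state, held 347 CPM in KO and 224 CPM in WT, a ratio of 0.63. In all other nuclei the ratios were also above 0, at 1.01 for Neu4, 0.79 for Bcas1 and 0.60 for Gpr17, while Bcas1 lay at -0.75 in astrocytes. The noncoding 9630013A20Rik had the highest ratio, 1.46, with 336 CPM in KO and 122 CPM in WT. It is annotated as antisense, and whether strand was used in counting is not stated. At least 1 UMI of Bmp4, Enpp6 or Gpr17 was found in 65 of 107 KO nuclei, or 60.7% (50.8 to 70.0), and 38 of 90 WT nuclei, or 42.2% (31.9 to 53.1), against 2.16% of KO and 2.74% of WT microglia. UMIs of at least 2 of these genes were found in 6 KO nuclei (5.61%) and 6 WT nuclei (6.67%). Enpp6 and Bmp4 were not higher in KO in the nuclei rich in Bcas1 that are described below. Enpp6 held 23 UMIs in KO and 28 in WT there, a log2 ratio of -0.87 (-1.73 to -0.02). Bmp4 held 8 UMIs in KO and 7 in WT there, a log2 ratio of -0.39 (-2.05 to 1.30). Without the neuron-rich and Mobp nuclei, 3 committed genes were past 1.5-fold higher and the median was 0.24. With the excluded genes not used, 1 was past it and the median was 0.19.

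A small set of nuclei stood out by its Bcas1 UMIs. Among the 104 KO and 83 WT precursors left without the neuron-rich and Mobp nuclei, 9 in KO, or 8.65% (4.03 to 15.8), and 6 in WT, or 7.23% (2.70 to 15.1), held at least 10 UMIs of Bcas1. This limit was chosen after the values had been seen. These Bcas1-high nuclei held 12 to 42 Bcas1 UMIs in KO, with a median of 34, and 12 to 34 in WT, with a median of 18. Near the limit, 9 KO nuclei and 9 WT nuclei held 5 to 9 UMIs, and 1 KO nucleus and 2 WT nuclei held 10 to 14. A Pdgfra UMI was found in 1 of the 9 KO and 1 of the 6 WT Bcas1-high nuclei, against 90 of 95 other precursors in KO (94.7%) and 61 of 77 in WT (79.2%). Since Pdgfra is a rule gene, its shares among the chosen nuclei were shaped by the rule and are only a description.

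Several genes of the step that precedes myelin were higher in the Bcas1-high nuclei of both libraries. The genes given here were chosen after their values had been seen. Enpp6, a choline phosphodiesterase of newly forming oligodendrocytes, held 618 CPM in Bcas1-high nuclei and 3.26 CPM in the other precursors of KO, and 1129 CPM in Bcas1-high nuclei and 0 UMIs in the others of WT. Bmp4 held 215 CPM against 3.26 CPM in KO, and 282 CPM against 3.72 CPM in WT. Fyn, a kinase that acts at the start of myelination, held 5134 CPM against 368 CPM in KO, and 5320 CPM against 398 CPM in WT. Each of these 3 genes was many times higher in the Bcas1-high nuclei. Other genes of the lineage were less clear in WT. Ugt8a held 161 CPM against 164 CPM there, and 833 CPM against 176 CPM in KO. Its WT level in Bcas1-high nuclei rested on 4 UMIs, and its log2 interval in WT ran from -1.96 to 1.44. Neu4 and Tcf7l2 were higher in the Bcas1-high nuclei of both libraries, at log2 ratios of 0.74 and 2.01 in KO and 0.63 and 1.23 in WT. Their intervals in WT ran across 0, from -0.56 to 1.65 on 9 UMIs and from -0.08 to 2.35 on 8 UMIs. Nfasc, an adhesion gene of nodes of Ranvier and of myelin-forming cells, held 1559 CPM against 153 CPM in KO, and 2257 CPM against 141 CPM in WT. Tnr held 10726 CPM against 4308 CPM in KO, and 10157 CPM against 4666 CPM in WT. Ptprz1 went the other way, with 914 CPM against 3914 CPM in KO, and 1048 CPM against 2681 CPM in WT. Of the KO UMIs of St18, 39 lay in these 9 nuclei and 0 in the other 95. Of 123 KO UMIs of 9630013A20Rik, 113 lay in the 9 Bcas1-high nuclei, and of 37 WT UMIs 22 lay in the 6, so its ratio rested on them. With at least 4 rule genes required its ratio was 0.057.

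KO and WT levels were also set side by side in the remaining Bcas1-low nuclei, which were not free of this step. They held 87 Gpr17 UMIs in KO and 47 in WT, against 38 and 26 in the Bcas1-high nuclei. In the Bcas1-low nuclei Bcas1 itself had a log2 ratio of 0.15, while Gpr17 stood at 0.70, Neu4 at 0.66, Olig2 at 0.55 and Ptprz1 at 0.55. The rule genes Pdgfra and Cspg4, by which the nuclei were chosen, stood at 0.79 and 0.78. Mertk was at 1.06, Lrp1 at 1.07 and Cd81 at 1.47 in the same nuclei, and Sema6d at 0.02. The value for Bcas1 follows from the split, which used its UMIs. Sema6d held 1909 CPM in the Bcas1-high nuclei of KO and 806 CPM in those of WT.

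**Figure D4:**
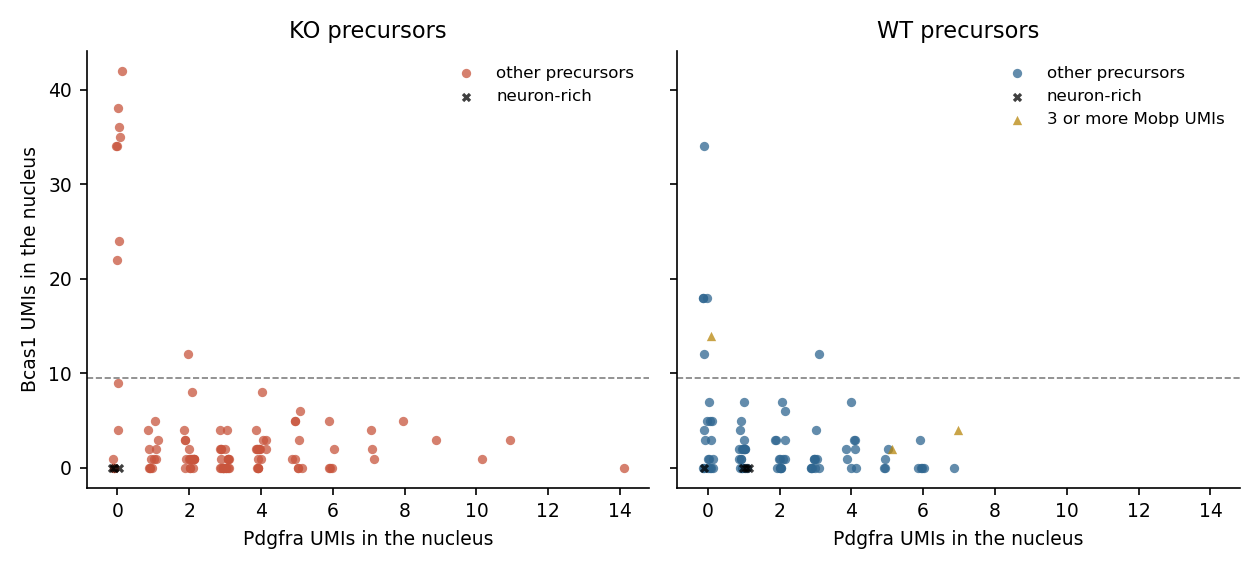
Bcas1 UMIs against Pdgfra UMIs in each precursor nucleus of KO (left) and WT (right), with the neuron-rich and Mobp nuclei marked and a dashed line under 10 Bcas1 UMIs; points are shifted sideways slightly. Nuclei above the line, 9 in KO and 6 in WT without the marked ones, mostly lay at 0 Pdgfra UMIs. Pdgfra is one of the genes that chose the nuclei.

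Myelin genes were mostly under the minimum, with 4 of 25 above it. Ptgds, a prostaglandin synthase of meningeal cells and oligodendrocytes from the list of vascular and fibroblast markers, held 240 CPM in KO and 146 CPM in WT precursors, against 456 CPM in KO and 142 CPM in WT microglia. After thinning, a Ptgds UMI was found in 23.6% of KO and 11.1% of WT precursors, against 34.1% of KO and 16.2% of WT microglia. Expression of Ptgds in precursors could thus not be told from background. Ugt8a, an enzyme of myelin lipid synthesis, held 232 CPM in KO and 149 CPM in WT precursors, a ratio of 0.64, and its thinned share was 20.8% in KO and 11.1% in WT precursors against 4.4% in KO and 1.5% in WT microglia. Mbp, the myelin basic protein gene, held 481 CPM in KO and 515 CPM in WT precursors.

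Receptors and channels by which precursors sense neurons were close together in the libraries. Of 30 glutamate receptor genes, 16 reached the minimum, none was past 1.5-fold in either direction, and the median log2 ratio was -0.13. Gria2, an AMPA receptor subunit, held 1319 CPM in KO and 1220 CPM in WT. Gria1, another AMPA receptor subunit, had the lowest ratio of the list, -0.51. Of 30 receptors for GABA and other transmitters, 6 reached the minimum and none was past 1.5-fold, with a median of -0.20. Of 40 ion channel genes, 25 reached it, at a median of -0.11. Kcnip3, which encodes a calcium-binding partner of potassium channels, was the only member past 1.5-fold lower, against 4.82% of all genes. It held 147 CPM in KO and 256 CPM in WT, a ratio of -0.80 that was -0.79 without the neuron-rich and Mobp nuclei. Kcnip3 was lower in KO throughout the libraries, at -0.77 in oligodendrocytes, -0.90 in astrocytes, -0.65 in microglia and -0.92 in all other nuclei. Kcnd2, a potassium channel subunit bound by such proteins, held 3662 CPM in KO and 4098 CPM in WT.

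Synaptic and neural adhesion genes had 37 of 54 members above the minimum, at a median log2 ratio of -0.05. None was past 1.5-fold higher in KO and 3 were lower, Cntnap2, Cntn5 and Cdh18, against 4.82% of all genes. Cdh18, a cadherin, held 235 CPM in KO and 379 CPM in WT, a ratio of -0.69 that was -0.61 without the neuron-rich and Mobp nuclei. Lsamp, an adhesion protein of the limbic system, stood at a ratio of -0.03. Without those nuclei, 2 members were past 1.5-fold lower.

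**Figure D5:**
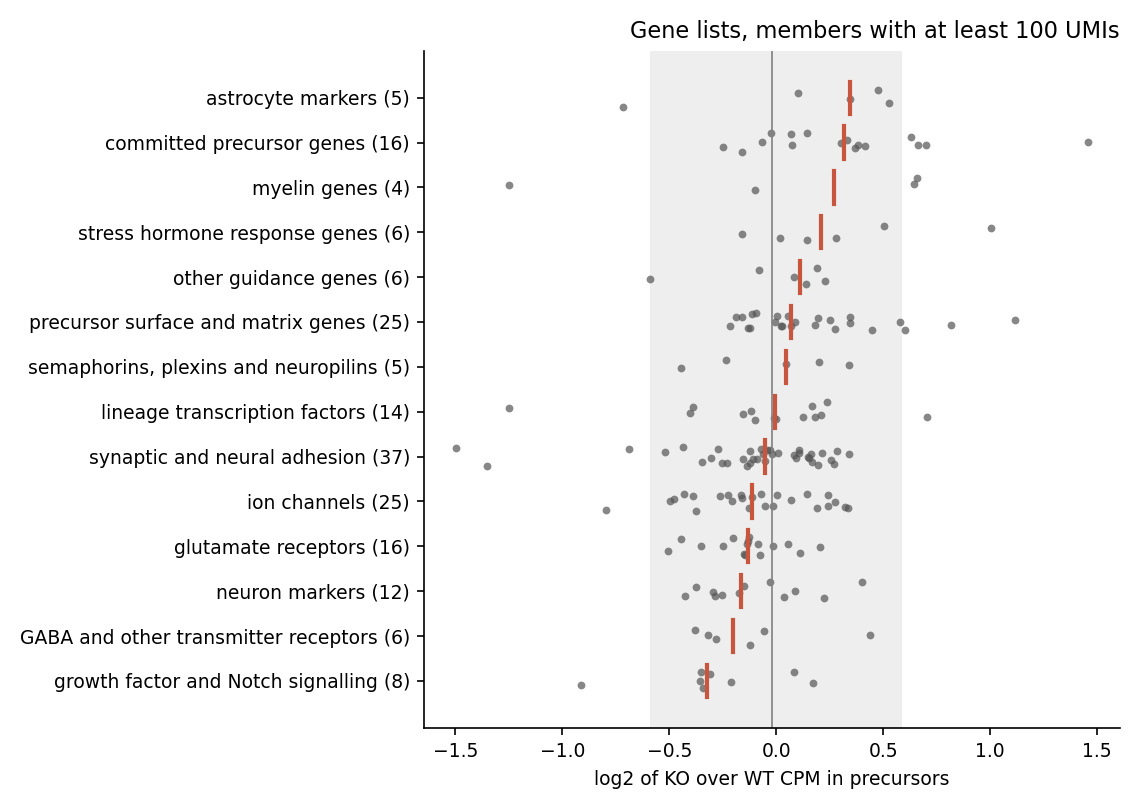
Log2 ratios of KO over WT CPM for list members with at least 100 UMIs in precursors (points), for lists with at least 4 such members, their number in brackets; coloured bars are list medians, the grey line is the median of all genes and the band marks ratios within 1.5-fold. Medians ran from -0.32 for growth factor and Notch genes to 0.32 for committed precursor genes among lists with at least 8 members, against -0.02 over all 1265 genes.

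Among the stress hormone response genes 6 of 17 reached the minimum, and Mertk was the only member past 1.5-fold higher, against 4.74% of all genes. Zbtb16, a transcription factor gene induced by glucocorticoids, held 412 CPM in KO and 291 CPM in WT, a log2 ratio of 0.50, while Fkbp5, a chaperone gene of the receptor, held 164 CPM in KO and 149 CPM in WT and Sgk1, a kinase gene, 333 CPM in KO and 329 CPM in WT. The median of the list was 0.21. Of 17 heat shock genes 3 reached the minimum and 2 were past 1.5-fold higher in KO, against 4.74% of all genes. Hspa8, a constitutive chaperone, held 309 CPM in KO and 183 CPM in WT, and Hspa5, the chaperone of the endoplasmic reticulum, 265 CPM in KO and 163 CPM in WT, at log2 ratios of 0.75 and 0.70. Hspa8 was higher in KO in every class, at 0.71 in oligodendrocytes, 0.38 in astrocytes, 0.54 in microglia and 0.51 in all other nuclei. Its thinned shares of 23.6% in KO and 14.4% in WT precursors lay under the 42.2% of KO and 26.5% of WT microglia. In thinned nuclei Hspa5 was at -0.058, so its direction rested on the setting. Of 32 activity-induced genes 1 reached the minimum, Homer1, a postsynaptic scaffold, with 101 CPM in KO and 186 CPM in WT, a ratio of -0.88 that was -0.74 without the neuron-rich and Mobp nuclei. Homer1 was lower in KO in the other classes too, at ratios from -0.74 in oligodendrocytes to -0.54 in astrocytes. Microglia held 109 CPM in KO and 165 CPM in WT, near the precursor levels. Its thinned shares were 10.4% of KO and 12.2% of WT precursors, against 9.6% of KO and 14.7% of WT microglia. These shares do not tell Homer1 expression in precursors from background.

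Some lists could be read only as sums. The cholesterol synthesis list, of 24 genes, had no member with 100 UMIs and together held 209 UMIs or 571 CPM in KO and 125 UMIs or 364 CPM in WT. The 37 cell cycle genes held 236 UMIs in KO and 187 in WT. Among 21 immune and antigen presentation genes, Cd81 was the 1 member above the minimum. Of 12 neuron markers above the minimum none was past 1.5-fold, at a median of -0.16. Of 5 astrocyte markers above the minimum 1 was past 1.5-fold lower in KO, against 4.82% of all genes. It was the bicarbonate transporter Slc4a4 at -0.72, which came to -0.18 without the neuron-rich and Mobp nuclei. Slc1a2, the main glutamate transporter of astrocytes, held 729 CPM in KO and 507 CPM in WT precursors.

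Genes near Btbd9 on chromosome 17 were counted unevenly. Glo1, which detoxifies methylglyoxal, held 32 UMIs in KO and 7 in WT, a log2 ratio of 2.10 below the minimum of 100 UMIs. Btbd9 held 143 UMIs in KO and 93 in WT, a ratio of 0.53. Both genes were higher in KO in every class, at ratios from 1.32 in astrocytes to 2.10 in microglia for Glo1 and from 0.89 in microglia to 0.99 in astrocytes for Btbd9. Glp1r, the GLP-1 receptor, had no UMI in precursors of either library. Xist had no UMI in precursors of either library, and the Y-linked Eif2s3y held 75 UMIs in KO and 58 in WT and Uty 55 in KO and 44 in WT.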

How the data were processed

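Amygdala nuclei were profiled in 1 KO and 1 WT library. Per the submitters' processing notes the authors used Cell Ranger 6.0.0 and the mm10 build, and the deposited matrices hold raw UMI counts per gene and barcode. Annotation release, treatment of intronic reads, use of strand and nucleus calling are not stated in the sources used here. Symbols were matched by identifier for 32158 genes, and 127 stayed without one.

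Nuclei were kept with 500 to 4500 genes and at most 5% mitochondrial UMIs, and the precursor rule was applied to them. Barcodes with fewer than 500 genes (143 in KO, 12 in WT), above 5% (390 in KO, 257 in WT) or above 4500 genes (619 in KO, 722 in WT) were left out, in that order. Scrublet (scanpy 1.11.5) called 222 KO and 422 WT doublets among the nuclei before the upper gene limit, and they were kept; an alternative removed them. Counts were summed over precursors and scaled to CPM (Python 3.11.15, numpy 2.4.6, scipy 1.17.1). No test was made: with 1 library per genotype, sums carry exact Poisson, shares exact Clopper-Pearson and ratios exact conditional binomial intervals. A count of 0 allows up to 3 counts. TMM scaling came from edgeR 4.0.16 in R 4.3.3 and gave no test. Scripts were tested on simulated data.

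Other glia needed at least 3 UMI-positive genes of their own markers. Named genes are the 12 highest and 12 lowest ratios among genes with 100 UMIs over both libraries and 20 CPM in the higher, leaving out mitochondrial, X inactivation, Y-linked and unnamed gene models; the 20 leading profile genes; of 23 lists, the 4 members with most UMIs and up to 6 past 1.5-fold; Sema6d and its plexins; and a few genes of other groups studied in the series, such as Glo1 and Btbd9. Other named genes were chosen after their values were seen: Sox10, Sema3e, Gria1, Fkbp5, Xist, Uty, mt-Co1 and those of the Bcas1-high nuclei. Members and lists were chosen with earlier results of these data known. Some genes that the naming rule chose are not reported here.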

Additional observations from a re-analysis of the deposited data

Results flagged for a closer look

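For 3 genes the ratio of KO over WT in precursors had the opposite sign in another glial class, past 1.5-fold in both, and the difference between the classes was not tested. The noncoding 9630013A20Rik had a log2 ratio of 1.46 in precursors and -0.68 in oligodendrocytes. Cntn5 stood at -1.35 in precursors and 1.43 in microglia, and Cntnap2 at -1.50 in precursors and 0.73 in microglia. The thinned shares of microglia with a UMI were not higher in KO for either gene. Cntn5 was found in 11.9% of KO and 23.5% of WT microglia, and Cntnap2 in 23.0% of KO and 23.5% of WT microglia. The precursor ratios of both genes were also much smaller in size without the neuron-rich and Mobp nuclei, as given above. Expression of Cntn5 in precursors could not be told from background, since its thinned share of nuclei lay under that of microglia in both libraries.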

How the results depend on the processing

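No paired analysis was possible because each genotype is 1 library. All 13 alternative settings listed in the design were run, and 3 more were chosen after seeing the data: leaving out the neuron-rich nuclei, leaving out these and the Mobp nuclei, and not using the 4 excluded genes. The share of precursors in KO and in WT was 0.918% and 0.516% with no UMI of 6 markers of other types, 2.54% and 2.13% with 2 rule genes required, 1.08% and 0.655% with 4, and 2.94% and 1.64% with the excluded genes not used. Its ratio lay between 1.20 and 2.12. Genes higher and lower in KO numbered 25 and 21 with no UMI of 6 markers, 182 and 198 with 2 rule genes, 37 and 31 with 4, 839 and 714 at a minimum of 20 UMIs, 16 and 22 at 200 UMIs, and 10 and 13 in nuclei thinned to 1000 UMIs, against 60 and 61; these settings change the number of nuclei or genes. Lower genes numbered 95 with the excluded genes not used and 34 without the neuron-rich and Mobp nuclei. Sema6d came to -0.11 in thinned nuclei. Ratios of named genes changed sign for Robo2 (0.50 with no UMI of 6 markers, 0.13 with 4 rule genes and in thinned nuclei, 0.38 with the excluded genes not used, 0.67 without the neuron-rich nuclei, 0.58 without Mobp nuclei too), St18 (0.014 with 2 rule genes, 0.14 with the excluded genes not used, 1.36 thinned), Slc24a2 (0.11 with the excluded genes not used), Phactr1 (0.13) and 9630013A20Rik (-0.049) with no UMI of 6 markers, and Pkp4 (0.057) and Hspa5 (-0.058) in thinned nuclei. The cause was not tested. Over 115 named genes, 1641 values stayed inside the counting interval of the ratio, 185 moved past it and 14 changed sign. Sign changes were listed and counted only for genes past 1.5-fold over all precursors. The change of sign of Sema6d, whose ratio was smaller, is thus not among the 14. In the thinned setting, nuclei were chosen anew after thinning, 114 in KO and 73 in WT. Scaling moved all ratios by 0.02 (median of ratios) or -0.04 (TMM).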
